A study of Drosophila melanogaster with 42 samples.

Results

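The odorant-binding protein (Obp) genes of Drosophila melanogaster were followed through RNA-seq of male offspring whose fathers had or had not been restrained. Members were all genes whose symbol is Obp followed by a number, and 49 of the 15061 genes listed in each of the 4 deposited expression tables met this rule. lush, an odorant-binding protein gene with another style of symbol, fell outside it and served only as a reference. The study asked whether restraint stress of the father changes expression in the offspring and whether this requires dATF-2, a stress-responsive transcription factor of the father.

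Mothers were w1118 females in every cross. Fathers were w1118 males or dATF-2KO males, which lack dATF-2, and they were either restrained for 10 hours 3 times before mating or left unrestrained. The sons, 5 to 6 days old in the sample protocol and 6 to 7 days old in the series text, were frozen and separated into heads and body without head, and each library came from 50 males. Sons of dATF-2KO fathers carry an intact dATF-2 copy from the mother, so they were not null flies. Below, w1118 or dATF-2KO sons, heads and body are named by the genotype of the father, and genotype means that of the father. Atf-2 itself was at 66.7 to 74.7 FPKM in heads with w1118 fathers and 69.1 to 75.02 FPKM in heads with dATF-2KO fathers, so its level does not settle the genotype of the fathers of those heads, which rests on the labels, and in body it was 9.93 to 13.1 FPKM with dATF-2KO fathers against an authors' mean of 22.5 FPKM with restrained w1118 fathers. Every group shared the w1118 maternal background. Of 42 labelled samples, 30 libraries could be tied to a group by the table columns, 5 in each of 6 groups: heads of sons of unrestrained and restrained w1118 fathers, and heads and body of sons of unrestrained and restrained dATF-2KO fathers. For body of w1118 sons the library columns carry no group name, so the authors' mean of the restrained group alone was used, without error. Nothing in the sources says whether each pool came from a separate cross, and p-values therefore measure the spread between pools.

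Odorant-binding proteins are small secreted proteins that hold a hydrophobic ligand in a pocket braced by disulphide bonds. In olfactory and taste sensilla, support cells release them into the lymph around the sensory neurons, and the classical antennal members are thought to carry or buffer odours there. Many insect members are made elsewhere: several are secreted into seminal fluid by the male reproductive tract, and others by fat body into the hemolymph. Plus-C members have additional conserved cysteines, and Minus-C members lack some of the classical ones.

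Values are FPKM, fragment counts scaled by transcript length and by sequencing depth, which allows genes of different length to be compared. The exact number of reads in each library is not recoverable from these values, and the paper gives only an approximate figure common to all libraries. Each table was scaled separately by the authors, and levels from different tables are set side by side with no test. The tissue labels were checked against marker genes. Photoreceptor markers (8 of 8 listed) summed to 29255 to 31352 FPKM in head libraries and 11.5 to 14.1 FPKM in body libraries of dATF-2KO sons, and accessory gland markers (10 of 12 listed) summed to 13.2 to 33.1 FPKM in heads and 15955 to 21061 FPKM in that body. Library 3 of the restrained dATF-2KO heads and library 3 of the restrained dATF-2KO body stood apart in the list of female yolk and eggshell transcripts. The 5 markers summed to 1214 FPKM in the first, against at most 59.4 FPKM in the other heads of that genotype. In the second they summed to 1800.2 FPKM, against at most 4.34 FPKM in the other body libraries. Among these markers Yp3 was present in all head libraries, at 26.7 to 32.1 FPKM in w1118 heads. In the authors' mean for body of restrained w1118 sons, photoreceptor markers summed to 184 FPKM and yolk and eggshell markers to 79.3 FPKM.

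As a family, Obp genes made up a larger share of expression in heads than in body. They took 1.30 to 1.35% of the summed FPKM in heads of w1118 sons, 1.35 to 1.47% in heads of dATF-2KO sons and 0.680 to 0.740% in body of dATF-2KO sons, and in every library 3 members supplied 63.8 to 72.8% of the family sum. With detection set at a group mean of at least 1 FPKM, 27 of 49 members were detected in all 4 head groups (55.1%, against 64.0% of all genes), 26 in both body groups (53.1%, against 80.6%) and 19 in both tissues (38.8%, against 60.2%). Of all members, 12 stayed below 1 FPKM in every group (24.5%, against 13.0% of all genes). The range of levels was wide, from 0 in all 20 head libraries for Obp46a and Obp50d to means of 2657 FPKM for Obp44a and 2183 FPKM for Obp19d in dATF-2KO heads.

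By tissue, 6 members were detected in heads and below the minimum in body (Obp19b, Obp28a, Obp56h, Obp57e, Obp83a and Obp83b; 12.2% of members, against 3.25% of all genes), 6 were detected in body and below the minimum in heads (Obp22a, Obp50b, Obp50d, Obp51a, Obp56i and Obp93a; 12.2%, against 18.4% of all genes), and 16 were detected in both with means less than 10-fold apart. A further 2 detected in both were at least 10-fold higher in heads (Obp19d and Obp56e) and 1 at least 10-fold higher in body (Obp56f). Obp19c, Obp49a, Obp73a, Obp84a, Obp85a and Obp99a passed the minimum in only some groups of a tissue. The authors' mean for body of restrained w1118 sons was on the same side of 1 FPKM as the dATF-2KO body for 46 members; the 3 exceptions were Obp19b (1.16 FPKM), Obp19c (1.92 FPKM) and Obp50d (0.800 FPKM).

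**Figure D1:**
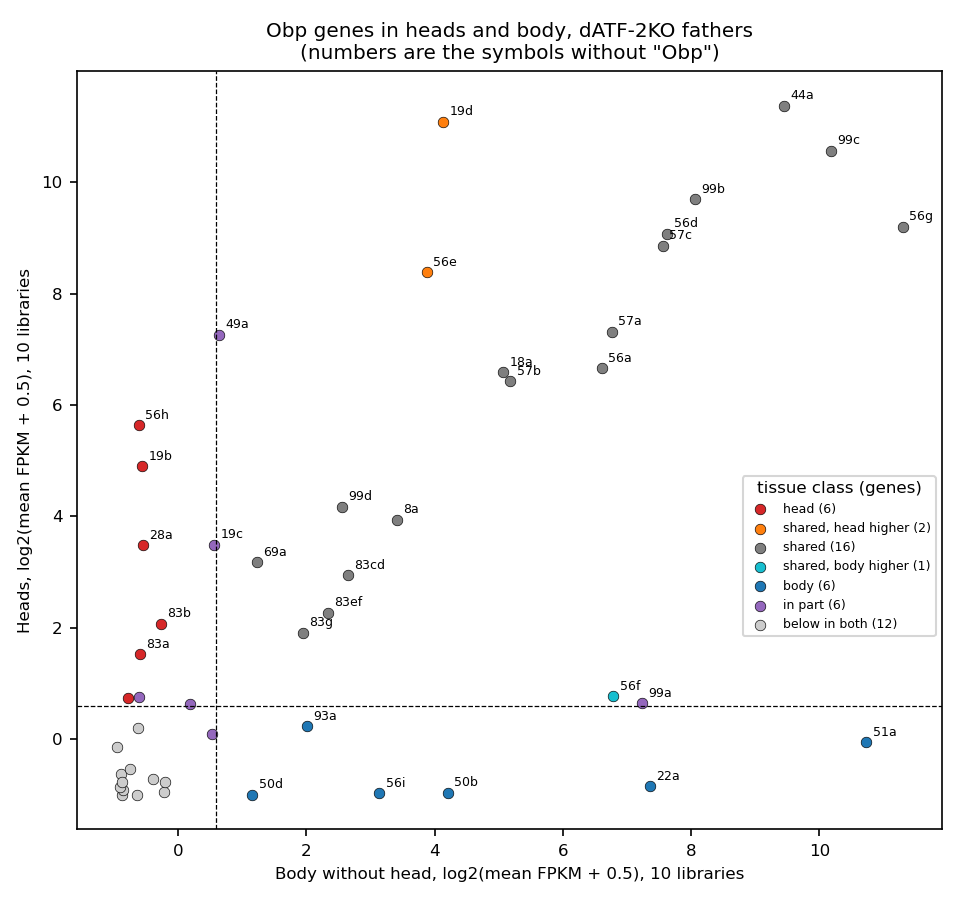
Mean level of each of the 49 Obp genes in body without head (horizontal axis) and in heads (vertical axis) of sons of dATF-2KO fathers, both as log2(FPKM + 0.5) over 10 libraries, coloured by tissue class; dashed lines mark 1 FPKM. Obp51a and Obp22a lie at the lower right with body levels of 1702 and 163 FPKM and head levels under 1 FPKM, Obp19d at the upper left of the shared genes (2183 FPKM in heads, 17.1 FPKM in body), and Obp44a and Obp99c at the upper right.

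Obp44a, Obp19d, Obp99c and Obp99b were the highest members in both head tables, followed by Obp56d in w1118 heads (mean 545 FPKM, with Obp56g at 532 FPKM) and by Obp56g in dATF-2KO heads (589 FPKM, with Obp56d at 540 FPKM). Obp44a, a Minus-C member known from fat body, hemolymph and brain glia, stood at 2587, 2490.3, 2554, 2549 and 2430.0 FPKM in heads of sons of unrestrained w1118 fathers and at 2537, 2491, 2508, 2515 and 2501 FPKM with restrained w1118 fathers. In dATF-2KO heads its values were 2729.6, 2714, 2766, 2644 and 2600.4 FPKM without and 2601, 2632, 2594, 2618 and 2669.7 FPKM with restraint. The groups overlapped in both tables, and the whole span over 20 libraries was 2430.0 to 2766 FPKM. Its locus overlaps exons of Pabp2 on the opposite strand, and whether the counting used strand is not given in the sources used here, so its level is uncertain to that extent.

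Obp19d, known as PBPRP2 and made in antennal and gustatory organs, was 2169, 2161, 2088, 2228 and 2119.6 FPKM in w1118 heads without and 2239, 2268, 2267, 2298 and 2192 FPKM with paternal restraint. In dATF-2KO heads it was 2239, 2317, 2168, 2208 and 2273 FPKM without and 2200.5, 2127, 2122, 2115 and 2058 FPKM with restraint, the reverse order of the group means. In body of dATF-2KO sons it fell between 14.2 and 20.5 FPKM, 128 times lower by the ratio of means. The authors' mean in body of restrained w1118 sons was 45.7 FPKM, in a table where the photoreceptor opsin ninaE had an authors' mean of 110.6 FPKM against 0.0506 to 0.428 FPKM in dATF-2KO body; the part of head material in that value was not tested.

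Obp99c and Obp99b lie in a cluster of 4 Minus-C genes on 3R (dm3, chr3R:25497379-25542618), together with Obp99a and Obp99d. Obp99c, a fat body and hemolymph member, was level across heads, with 1627, 1640.3, 1688, 1636 and 1579 FPKM and 1634, 1575, 1644, 1628 and 1656 FPKM in w1118 heads without and with restraint, and 1612, 1519.6, 1538, 1466 and 1463 FPKM and 1539.9, 1507, 1556, 1449.9 and 1529.8 FPKM in dATF-2KO heads. In body it was 1192, 1153, 1122, 1165 and 1174 FPKM without and 1123, 1184, 1074, 1209.7 and 1192 FPKM with restraint in dATF-2KO sons. Its groups overlapped in all 3 tables. Obp99c shares its locus and overlapping exons with Gycalpha99B on the opposite strand. Obp99a was the body member of the cluster, at 133 to 166 FPKM in dATF-2KO body and at 0 to 0.768 FPKM in 19 of 20 head libraries. The remaining head library, restrained dATF-2KO library 3, held 7.41 FPKM, and this is the library with high yolk transcripts (Yp1 at 499 FPKM against 1.08 to 12.8 FPKM in the other dATF-2KO heads). Obp99d was low throughout, at 11.7 to 24.2 FPKM in heads and 3.16 to 7.04 FPKM in body.

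In body of dATF-2KO sons the highest member was Obp56g, a seminal fluid protein gene that is also active in taste organs of the head. It stood at 2514, 2537, 2270.0, 2569 and 2477 FPKM without and 2545, 2574, 2393, 2671 and 2659 FPKM with paternal restraint, and the groups overlapped. In dATF-2KO heads it was 596, 638, 573, 519 and 599 FPKM without and 561, 558, 649.5, 594 and 602 FPKM with restraint, and in w1118 heads 451 to 645 FPKM. Of the 6 ejaculatory bulb and duct markers listed, 4 had rows, and they summed to 4246 to 4769 FPKM in heads and 17049 to 20113 FPKM in body of dATF-2KO sons. The head sum was nearly all PebIII (4245 to 4767 FPKM in heads, 1136 to 1336 FPKM in body). PebII was at 9773 to 12198 FPKM in body and at 0 to 1.69 FPKM in 19 of 20 head libraries, Peb at 0 to 0.548 FPKM in 19 of 20 and Dup99B at 0 to 3.67 FPKM in all 20. The part of reproductive tract material in head Obp56g was not tested.

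Obp51a was a body gene: 1699, 1726, 1534, 1753 and 1776 FPKM without restraint and 1594, 1601, 1607, 1960.0 and 1768 FPKM with it, against 0 to 0.564 FPKM in 19 of 20 head libraries. The head library outside that range was restrained dATF-2KO library 4, with 1.60 FPKM of Obp51a and 11.04 FPKM of PebII. Obp51a encodes a small secreted seminal fluid protein, and its gene lies within the span of hbs without exon overlap. Of the other 5 seminal fluid members, 3 were likewise higher in body. Obp22a was at 161, 170.1, 142, 173 and 172 FPKM without and 147, 163, 149.6, 176 and 176 FPKM with restraint in body, and at 0 to 0.275 FPKM in heads. Obp56f was at 111, 120.0, 95.6, 119 and 117 FPKM without and 95.8, 107, 95.3, 127 and 113 FPKM with restraint in body. Obp56i was at 11.7, 8.07, 6.27, 8.85 and 7.96 FPKM without and 7.69, 6.09, 5.89, 9.89 and 10.7 FPKM with restraint, and was listed at 0 in 19 of 20 head libraries. All 3 overlapped between the groups.

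Obp8a and Obp56e, the other members of the seminal fluid list, were not body genes in these data. Obp8a was at 10.2, 13.2, 7.35, 10.5 and 9.48 FPKM without and 7.74, 11.3, 10.3, 10.8 and 10.5 FPKM with restraint in body, and at 11.9 to 17.7 FPKM in dATF-2KO heads. Obp56e was at 14.3, 18.3, 14.3, 13.7 and 14.1 FPKM without and 11.9, 14.6, 13.3, 14.8 and 13.05 FPKM with restraint in body, and at 315 to 362 FPKM in dATF-2KO heads, 23.4 times higher by the ratio of means. The authors' means for body of restrained w1118 sons were 2991 FPKM for Obp56g, 1747 FPKM for Obp51a, 213 FPKM for Obp22a, 100.4 FPKM for Obp56f, 17.9 FPKM for Obp56e, 10.7 FPKM for Obp8a and 7.41 FPKM for Obp56i, which gives the same order of levels as in dATF-2KO body. In both body tables Obp56g and Obp51a were the highest of the list and Obp56i the lowest.

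The Obp56 genes showed how far neighbours can differ. The 9 members lie within 170992 bases of 2R (dm3, chr2R:15585228-15756219) and fell into 6 different tissue classes. Obp56e and Obp56f are 457 bases apart: in dATF-2KO sons the first had a mean of 334 FPKM in heads and 14.2 FPKM in body, and the second 1.20 FPKM in heads and 110.1 FPKM in body. Obp56d, next to them, was high in both (540 FPKM in heads, 197 FPKM in body). In w1118 heads it was 536, 519, 546, 540.3 and 544 FPKM without and 546, 550.1, 543, 573 and 549 FPKM with restraint, with overlap. Obp56a was even (101.0 FPKM in heads, 97.3 FPKM in body), and Obp56b and Obp56c were below 1 FPKM in both. Obp56h, which influences male mating behaviour, was at 38.98 to 57.05 FPKM in dATF-2KO heads and at most 0.452 FPKM in body, while Obp56i was the reverse.

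**Figure D2:**
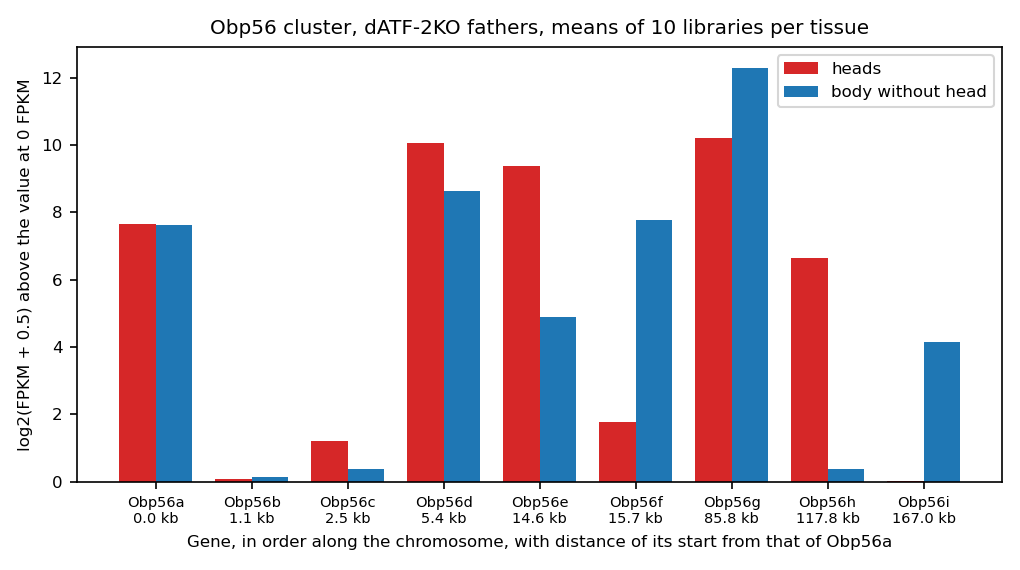
Mean levels of the 9 Obp56 genes in heads (red) and body without head (blue) of sons of dATF-2KO fathers, 10 libraries each, as log2(FPKM + 0.5) above its value at 0 FPKM. The genes stand in chromosome order, evenly spaced, with the distance of each start from that of Obp56a written below. Obp56e is higher in heads (334 against 14.2 FPKM) and its neighbour Obp56f in body (110.1 against 1.20 FPKM).

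In the cluster at 57, Obp57b and Obp57c, which share a locus, and Obp57a were all detected in both tissues. In dATF-2KO sons Obp57c was highest, with means of 464 FPKM in heads and 188 FPKM in body. Obp57e, known with Obp57d for the taste of host-plant acids, was at the edge of detection in heads (1.19 FPKM in w1118 and 1.17 FPKM in dATF-2KO sons). The 4 Obp19 genes on X (dm3, chrX:20286772-20292009) spanned 5238 bases and each fell into a different tissue class: Obp19d was very high in heads, Obp19b (29.5 FPKM in dATF-2KO heads) and Obp19c (10.7 FPKM) were intermediate there, and Obp19a stayed below 1 FPKM in the mean of every group. Obp19c was at 0 to 0.378 FPKM in 9 of 10 dATF-2KO body libraries and at 8.35 FPKM in restrained library 3, in which Yp1 was 486 FPKM and the eggshell gene Cp36 249.9 FPKM. Without that library Obp19c was a head gene by the rule. The 3 Obp58 genes and their neighbour Obp59a, a humidity-sensing gene of the antenna, were below 1 FPKM in all groups.

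Of the 13 Plus-C members listed, 12 had rows and few were expressed. Obp49a, which takes part in bitter suppression of sweet taste, was the high one, at 126 to 141 FPKM in w1118 heads and 134 to 173 FPKM in dATF-2KO heads, with 0.502 to 1.73 FPKM in body. Obp50b reached 18.0 FPKM in dATF-2KO body, where the authors' mean for restrained w1118 sons was 6.33 FPKM, and its exons lie within the span of Obp50c, which was not analysed here. Obp93a, which shares its locus with CG5793, and Obp50d were in body at 3.53 and 1.73 FPKM. The remaining 8 were below 1 FPKM in both tissues, apart from Obp85a at 1.02 and 1.18 FPKM in the heads of the 2 genotypes. All 7 Minus-C members were detected in both tissues except Obp99a, described above.

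Members of the antennal list differed widely in level in these whole-head libraries. Obp19d and Obp56d were high and varied little (Obp19d at 2058 to 2317 FPKM and Obp56d at 513 to 582 FPKM over 20 libraries). Obp28a and Obp69a were at 6.06 to 13.3 FPKM, and the other 5 were below 1 FPKM in some libraries of each table. Obp83a (OS-F) and Obp83b (OS-E), neighbours on 3R that are abundant in the lymph of antennal trichoid and intermediate sensilla, were at 0.776, 0.291, 3.40, 4.15 and 3.68 FPKM and 0.614, 0.288, 2.18, 5.37 and 5.97 FPKM in w1118 heads without restraint. With restrained w1118 fathers they were at 3.32, 2.86, 0.507, 0.427 and 0.434 FPKM and 4.11, 2.90, 1.001, 1.01 and 1.86 FPKM. In both genes libraries 3, 4 and 5 of the unrestrained group and 1 and 2 of the restrained group were the higher 5 of 10, so high and low libraries occurred in both groups. The same 5 libraries were also highest in Os-C (1.98 to 5.81 against 0 to 0.582 FPKM), a10 (5.33 to 8.49 against 2.82 to 4.54 FPKM), a5 and Obp84a (1.05 to 1.495 against 0.474 to 0.965 FPKM), genes that were picked for this comparison after their values were seen.

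In dATF-2KO heads Obp83a was at 2.28, 0.283, 0.162, 4.79 and 7.01 FPKM without and 2.43, 2.73, 2.64, 0.958 and 0.574 FPKM with restraint, and Obp83b at 2.003, 0.187, 0.639, 4.58 and 10.1 FPKM and 5.13, 3.76, 6.05, 3.79 and 0.794 FPKM. The 5 libraries highest in Obp83a (unrestrained 4 and 5, restrained 1, 2 and 3) were again highest in Os-C and a10, and 4 of them in Obp83b and a5. For Obp84a it was 3 of the 5 (0.723 to 1.42 against 0.420 to 1.48 FPKM). Other antennal genes overlapped between the 5 higher libraries and the rest. Orco shared 4 of its 5 highest libraries with Obp83a in w1118 heads (1.79 to 2.35 against 1.54 to 2.03 FPKM) and 3 in dATF-2KO heads. lush was 8.37 to 10.3 FPKM in those 5 w1118 libraries and 7.65 to 9.26 FPKM in the other 5, and Snmp1 5.23 to 5.77 against 4.95 to 6.15 FPKM. Obp28a, another antennal member, was 6.90 to 10.3 against 6.06 to 12.1 FPKM. Over the whole antennal marker list, of which 6 of 7 had rows and 5 reached 1 FPKM, the sum was 20.9 to 29.9 FPKM in unrestrained and 17.7 to 26.6 FPKM in restrained w1118 heads, and 16.1 to 29.2 and 17.4 to 27.3 FPKM in dATF-2KO heads; the part of antennal material in the spread of Obp83a and Obp83b was not tested.

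**Figure D3:**
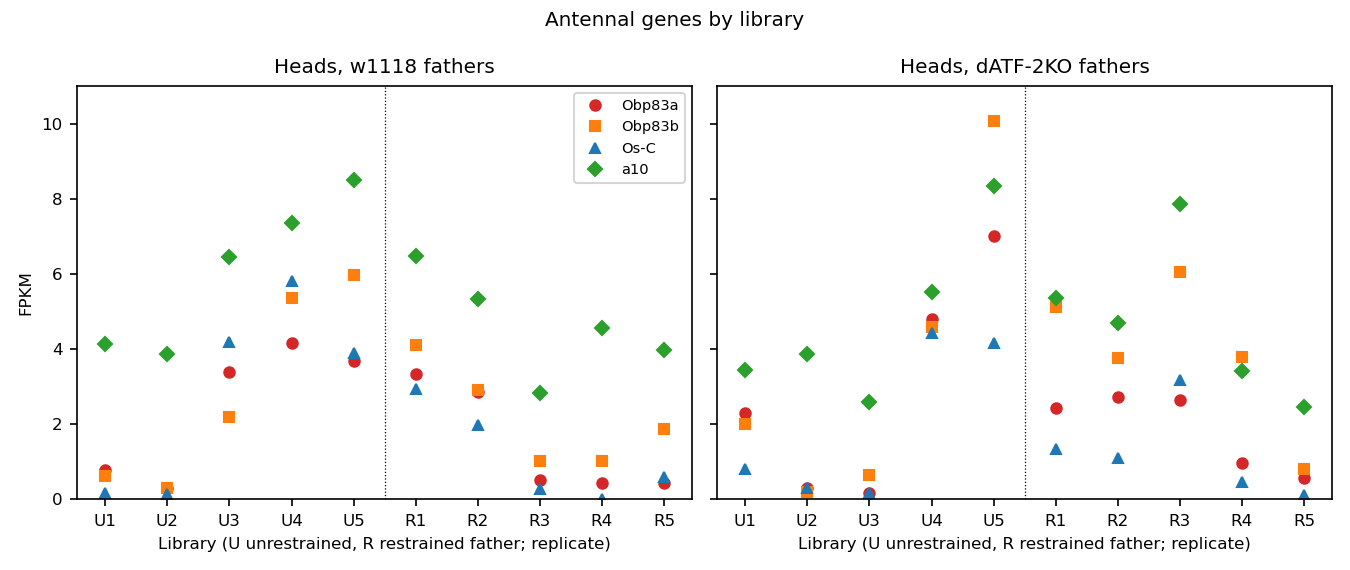
FPKM of Obp83a, Obp83b, Os-C and a10 in each of 20 head libraries, 10 with w1118 fathers (left) and 10 with dATF-2KO fathers (right); U and R mark unrestrained and restrained fathers, with the replicate number. The genes tend to be high in the same libraries, and high and low libraries occur in both groups: Obp83a runs from 0.291 to 4.15 FPKM on the left and from 0.162 to 7.01 FPKM on the right.

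Abundant members varied little between pools. For members of at least 100 FPKM the median coefficient of variation within a group was 3.36 to 4.25% in heads and 6.63 to 6.93% in body, against 2.41 to 3.31% and 6.51 to 6.69% for all genes at that level. Members of 1 to 10 FPKM had a median of 18.1 to 30.0% in heads, against 8.79 to 9.42% for all genes of that level.

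The question of paternal restraint was then put to each table whose library columns carry group names, so not to w1118 body. A gene was called at an adjusted p under 0.05 (limma, Benjamini-Hochberg over the table) together with a change of at least 1.4-fold, on log2(FPKM + 0.5). No Obp gene was called in any of the tested tables. In heads of w1118 sons 29 members were tested and 0 called, where 0.0504% of all 9924 genes were called higher and 0.0403% lower. At an unadjusted p under 0.05, 4 members were higher and 1 lower, where 7.06% of all genes were higher and 8.69% lower. No member passed the adjusted p alone (0.645% of all genes higher, 0.464% lower), and no member had groups that did not overlap (2.73% and 2.69%). In heads of dATF-2KO sons 0 of 30 were called by limma (background 0% higher and 0.0100% lower) or passed the adjusted p alone (0% and 0.0501%), and 2 were higher and 5 lower at an unadjusted p under 0.05 (6.05% and 4.39% of all genes). In body of dATF-2KO sons 0 of 27 were called by limma (0.121% and 0.0243%) or passed the adjusted p alone (0.121% and 0.0404%), with 1 higher and 1 lower at an unadjusted p under 0.05 (3.07% and 4.26%) and none without overlap between groups (0.906% and 1.09%).

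The changes were small in most members. The median log2 change was -0.01 over the tested members in w1118 heads, -0.04 in dATF-2KO heads and -0.06 in dATF-2KO body, against medians of -0.01, -0.002 and -0.02 for all genes. With sign ignored, the medians were larger in members (0.09, 0.08 and 0.09) than in all genes (0.05, 0.04 and 0.06). Members above and below 0 numbered 14 and 15 in w1118 heads, 10 and 20 in dATF-2KO heads and 8 and 19 in dATF-2KO body. Of all genes, 4479 of 9924, 4840 of 9975 and 5203 of 12363 were above 0. The 95% interval lay within 1.4-fold in both directions for 20 of 29, 21 of 30 and 22 of 27 members in the same order. Among members of at least 10 FPKM it did so for 17 of 18, 17 of 19 and 18 of 18. The intervals that reached beyond 1.4-fold belonged mostly to members near 1 FPKM, such as Obp83a, whose change of -0.55 in w1118 heads had an interval from -1.95 to 0.84. For those, a change of that size could not be told from none with these pools.

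**Figure D4:**
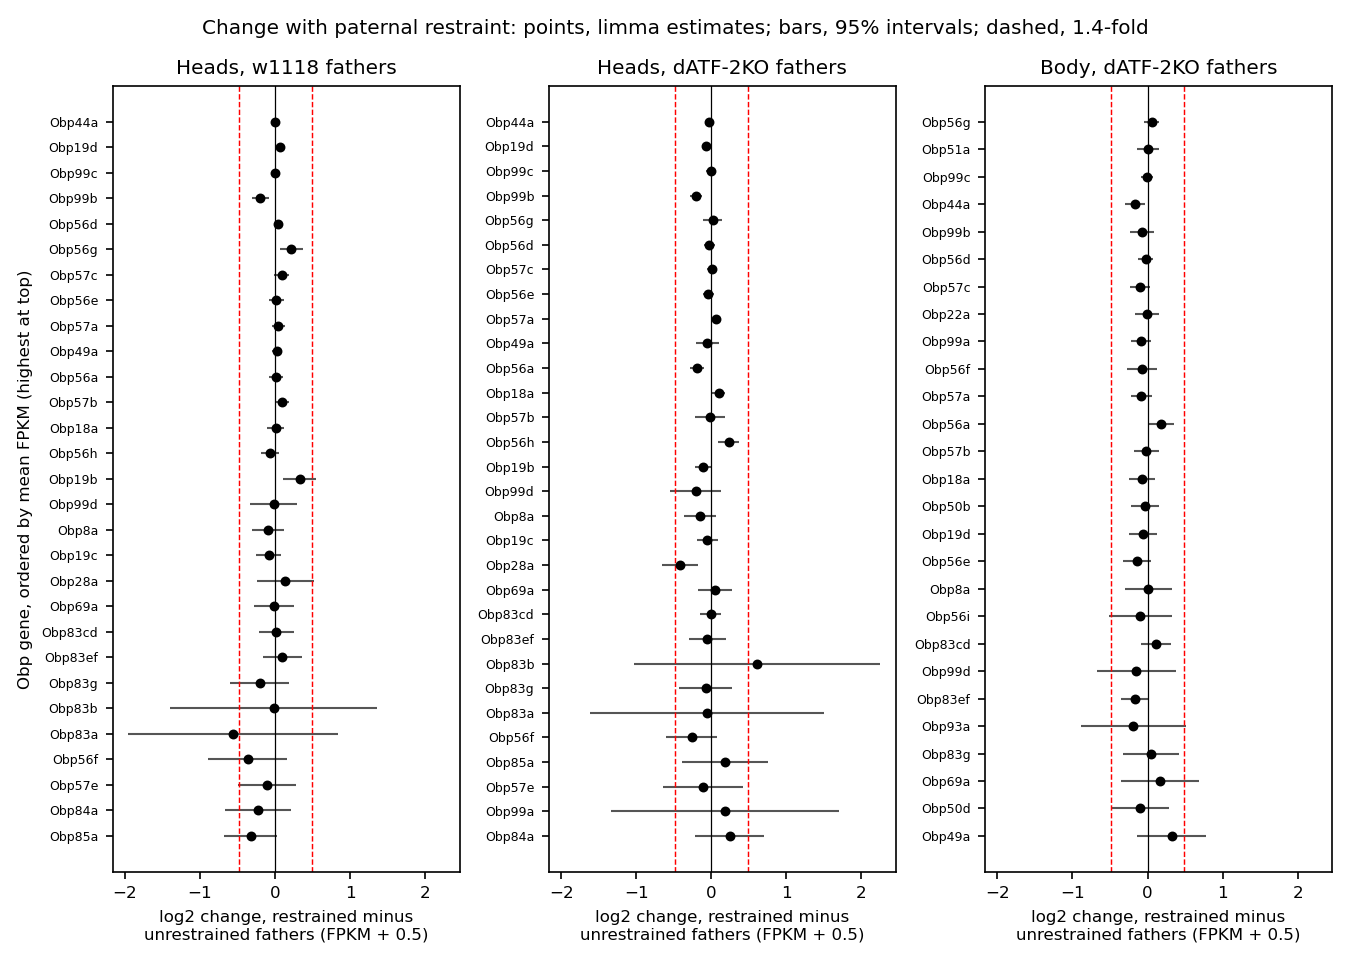
Log2 change with paternal restraint for every tested Obp gene in heads of w1118 sons (29), heads of dATF-2KO sons (30) and body of dATF-2KO sons (27), ordered by mean FPKM with the highest at the top. Points are limma estimates on log2(FPKM + 0.5), bars their 95% intervals, and dashed lines 1.4-fold. Estimates of abundant genes lie close to 0 with short bars, and bars widen toward the bottom; Obp83a and Obp83b have the widest bars in w1118 heads.

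Obp99b, a Minus-C gene of the fat body around the brain that is more active in males, had the lowest adjusted p of the family in both head tables. In w1118 heads it was 542, 574, 598, 623 and 599 FPKM without restraint and 566, 485, 524, 490.5 and 499 FPKM with it. The groups overlapped by restrained library 1 and unrestrained library 1, and the log2 change of -0.20 (SE 0.05) had an adjusted p of 0.0932 by limma. Without restrained library 1 the change was -0.23 with an adjusted p of 0.0438 by limma, still short of 1.4-fold. That was the lowest adjusted p over all alternatives run, which reached up to 0.281 by limma. In dATF-2KO heads it was 921, 879, 922, 857 and 841 FPKM without and 763, 757, 726, 822 and 781 FPKM with restraint. These groups did not overlap, as for 0.792% of all genes in that direction, and the log2 change was -0.20 (SE 0.04) with an adjusted p of 0.142. Neither passed the test with all libraries. In dATF-2KO body, where it was the fifth highest member, it was 272, 297, 300.4, 271 and 235 FPKM without and 243, 284, 243, 254 and 279 FPKM with restraint. These groups overlapped, with a log2 change of -0.07 (SE 0.07) and an adjusted p of 0.861 by limma.

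Fat body markers are given beside this gene. Of 7 listed, 6 had rows and 3 reached 1 FPKM in heads; none was at 0 in every head library. They summed to 3550 to 3964 FPKM in unrestrained and 3657 to 4085 FPKM in restrained w1118 heads, which overlapped, and to 3249.5 to 3497 and 3036 to 3221 FPKM in dATF-2KO heads, which did not. Lsp2, a larval serum protein gene of that list, was 551 to 684 FPKM in unrestrained and 423 to 479 FPKM in restrained dATF-2KO heads. Its groups did not overlap in those heads, as for 0.792% of all genes in that direction. The other abundant markers overlapped there, Tsf1 at 2093 to 2263 and 2093 to 2217 FPKM and Rfabg at 522 to 556 and 511 to 553 FPKM, so the gap in the sum was that of Lsp2. In w1118 heads Lsp2 was 810.1 to 955 and 704 to 923 FPKM, and Rfabg was higher with restraint without overlap (343 to 453 and 460.4 to 509 FPKM). Such a separation with higher values held for 2.73% of all genes in w1118 heads. The part of fat body content in Obp99b was not tested, and fewer cells of a type cannot be told apart from less RNA per cell in such pools. Between the genotypes, set side by side without a test, Obp99b had means of 550.1 FPKM in w1118 heads and 827 FPKM in dATF-2KO heads, and every dATF-2KO library was above every w1118 library. The share of all genes that separate in this way was not counted, and father genotype and table cannot be told apart here.

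A pair of genes in the Obp56 cluster separated the groups in dATF-2KO heads, in opposite directions. Obp56a was 108, 111, 103, 107 and 109.9 FPKM without and 89.99, 86.6, 94.01, 98.9 and 102 FPKM with restraint, a log2 change of -0.20 (SE 0.04) with an adjusted p of 0.167 by limma. Obp56h was 44.3, 47.5, 38.98, 44.96 and 50.5 FPKM without and 57.05, 51.3, 55.4, 50.7 and 51.4 FPKM with restraint, a log2 change of 0.23 (SE 0.06) with an adjusted p of 0.230 by limma. All 5 restrained libraries were below the unrestrained ones for Obp56a and above them for Obp56h. With Obp99b, 2 members did not overlap with lower values (0.792% of all genes) and 1 with higher values (1.43%), and none of the 3 passed the test. In w1118 heads both genes overlapped: Obp56a was 92.95 to 106 FPKM without and 97.4 to 107 FPKM with restraint, and Obp56h 45.4 to 53.2 and 42.9 to 50.9 FPKM. In dATF-2KO body Obp56a was 80.9, 90.9, 87.3, 98.1 and 98.2 FPKM without and 113, 111, 99.9, 106 and 88.2 FPKM with restraint, a log2 change of 0.18 (SE 0.08) with an adjusted p of 0.653 by limma.

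Taste and antennal genes with an unadjusted p under 0.05 moved by different amounts. Obp19b, a taste gene tied to amino acid sensing, was 27.1, 22.2, 19.1, 22.03 and 21.8 FPKM in w1118 heads without and 25.9, 32.6, 25.2, 31.5 and 26.4 FPKM with restraint, a log2 change of 0.33 (SE 0.10) with an adjusted p of 0.149 by limma. In dATF-2KO heads its change was -0.11 (SE 0.05) with an adjusted p of 0.454 by limma. Obp28a, an antennal member that buffers odour intensity, was 13.2, 13.1, 9.81, 13.3 and 12.00 FPKM in dATF-2KO heads without and 7.41, 8.03, 10.2, 9.46 and 10.4 FPKM with restraint, a log2 change of -0.42 (SE 0.11) with an adjusted p of 0.213 by limma. Unrestrained library 3 lay among the restrained ones. Its w1118 values were 6.06 to 10.6 and 7.78 to 12.1 FPKM.

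Obp56g in w1118 heads was 524, 518, 507, 462 and 451 FPKM without and 502, 584, 538, 645 and 591 FPKM with restraint, a log2 change of 0.21 (SE 0.07) with an adjusted p of 0.171 by limma. The groups overlapped by restrained library 1. The other members below an unadjusted p of 0.05 changed by at most 0.10 on the log2 scale in heads: Obp19d (0.07 in w1118 and -0.08 in dATF-2KO heads), Obp57b (0.09 in w1118 heads) and Obp18a (0.10 in dATF-2KO heads), with adjusted p values of 0.175, 0.279, 0.300 and 0.427 by limma. In body Obp44a was 762, 796, 669, 749.8 and 724 FPKM without and 674, 667, 583, 691 and 677 FPKM with restraint, a log2 change of -0.17 (SE 0.06) with an adjusted p of 0.533 by limma, and its lowest value was in restrained library 3, the body library with yolk and eggshell transcripts. Without that library the change was -0.13 with an adjusted p of 0.619 by limma.

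**Figure D5:**
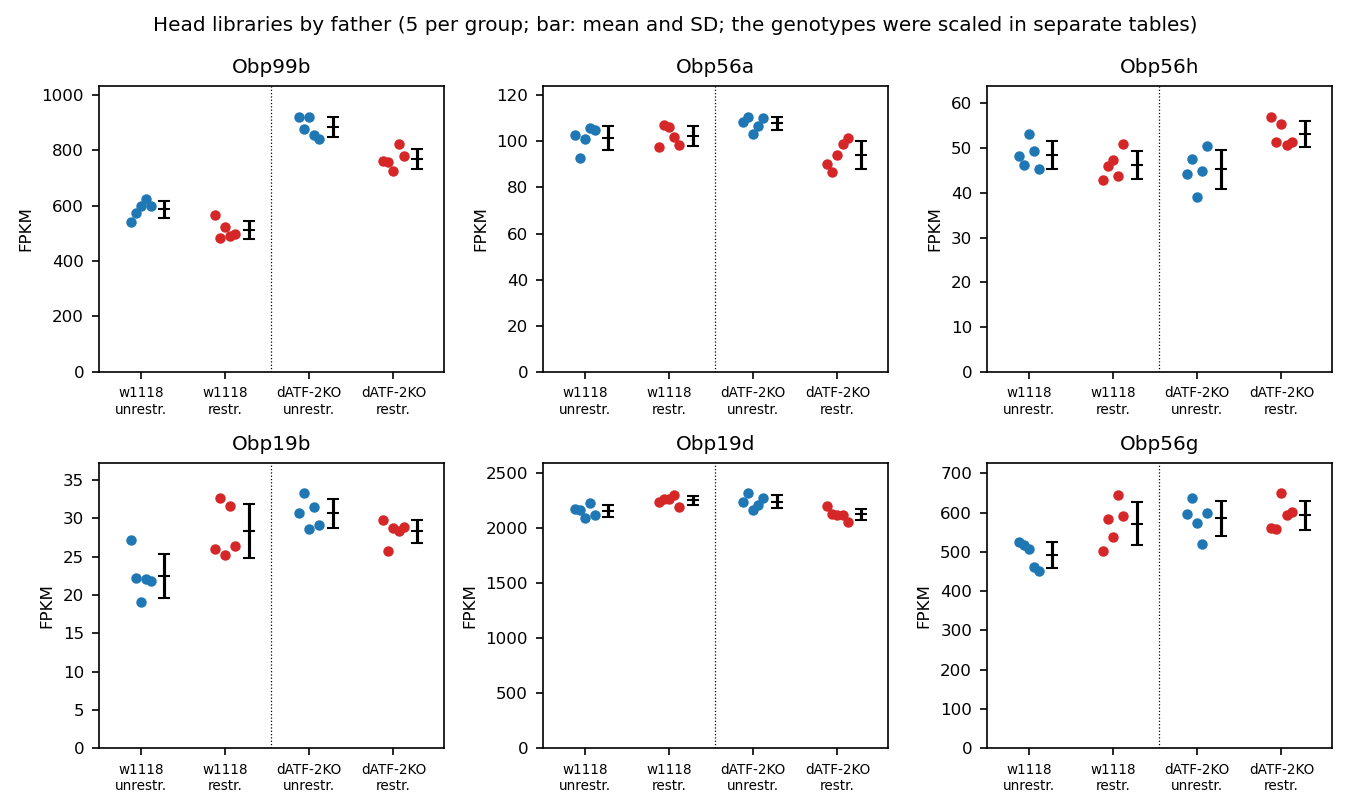
FPKM of Obp99b, Obp56a, Obp56h, Obp19b, Obp19d and Obp56g in each head library by father, 5 libraries per group, with the mean and SD beside the points; the 2 genotypes were scaled in separate tables. In dATF-2KO heads the unrestrained and restrained libraries do not overlap for Obp99b, Obp56a and Obp56h, and in w1118 heads they overlap in all 6 genes.

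By group of known site, no list had a member past an adjusted p of 0.05 in any tested table (limma). These lists were drawn up with earlier results of the data known. Of the 7 seminal fluid members, all tested in body, the log2 changes ran from -0.14 to 0.05 with a median of -0.01. Of 9 antennal members, 7 were tested in each head table, with medians of -0.01 in w1118 and -0.03 in dATF-2KO heads. Of 6 taste organ members with rows, all were tested in heads, with medians of 0.07 in w1118 and -0.04 in dATF-2KO heads. The fat body and hemolymph members Obp44a, Obp99b and Obp99c had a median of -0.01 in w1118 heads, and with Obp99a a median of -0.02 in dATF-2KO heads. Obp99a was tested there only through restrained library 3, at 7.41 FPKM against 0 to 0.768 FPKM in the other dATF-2KO heads. Of 12 other odour detection genes with rows, among them lush, Orco and Snmp1, 11 were tested in heads and 0 called, with medians of -0.03 and 0.00, and 1 was higher in w1118 and 1 higher and 1 lower in dATF-2KO heads at an unadjusted p under 0.05.

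Whether restraint of w1118 and of dATF-2KO fathers changed the heads differently was tested as a difference of the 2 changes over 9808 genes. None of 29 members passed an adjusted p of 0.05 by limma, where 0.0714% of all genes did with the w1118 change higher and 0.0816% with it lower, and at an unadjusted p under 0.05 the w1118 change was higher in 4 members and lower in 1 (5.03% and 6.59% of all genes). The lowest adjusted p was that of Obp19d, with a difference of 0.14 (95% interval 0.08 to 0.21) and an adjusted p of 0.0751. The other 4 were Obp19b with a difference of 0.44 (0.20 to 0.69), Obp56a with 0.21 (0.08 to 0.33), Obp56h with -0.30 (-0.49 to -0.12) and Obp28a with 0.56 (0.11 to 1.001), with adjusted p values of 0.154, 0.197, 0.191 and 0.321. For Obp99b the difference was 0.00 (-0.13 to 0.14), so its 2 changes in heads were within 1.4-fold of each other by that interval. The same test in body was not run, since the w1118 body columns carry no group names. The paper reported its changes with restraint mainly in body of w1118 sons, and none in heads at its thresholds. The tests here therefore do not say whether Obp genes changed in that body comparison.

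The sum over all 49 members was also compared between groups as a description. In dATF-2KO heads it made up 1.42 to 1.47% of the summed FPKM without and 1.35 to 1.39% with restraint, which did not overlap, and in w1118 heads 1.30 to 1.35% and 1.30 to 1.33%, which did. The Obp sum itself overlapped in dATF-2KO heads, at 9739 to 10253 FPKM without and 9596 to 9809 FPKM with restraint. The sum over all genes, by which the share is divided, was 681793 to 716243 FPKM without and 699795 to 724792 FPKM with restraint. The members with the largest drop in mean between the dATF-2KO groups were Obp19d (2241 to 2124 FPKM), Obp99b (884 to 770 FPKM) and Obp44a (2691 to 2623 FPKM). In body of dATF-2KO sons the share was 0.689 to 0.740% and 0.680 to 0.721%.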

How the data were processed

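RNA-seq was made from poly(A) RNA of pools of 50 sons; the labels and the study's methods name different library kits, an open point. Reads were aligned by the authors to dm3 using TopHat2, with CASAVA, Cufflinks and Cuffnorm listed in the submitters' processing notes (versions not given in the sources used here), and the authors deposited FPKM values in 4 separately scaled tables. The deposited tables also hold the authors' group means, ratios, p-values, q-values and related estimates of their own comparison, which were not used, apart from the mean FPKM of the restrained w1118 body. The 12 library columns of that table carry no sample or group name and were not used, so the planned w1118 body comparison was not run.

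Genes averaging 1 FPKM or more were tested with limma 3.58.1 (R 4.3.3, mean-variance trend) on log2(FPKM + 0.5), with restrained against unrestrained fathers in each table and Benjamini-Hochberg adjustment over the table. A gene was called at an adjusted p under 0.05 and at least 1.4-fold. On this scale fold changes of low genes are understated. The difference between genotypes was tested in 1 model over the 4 head groups. A member was detected in a tissue at a mean of at least 1 FPKM in every group, and head or body higher at 10-fold. Values in every library are given for the 5 highest members of each table, seminal fluid members in body and members past an adjusted p of 0.05; members at an unadjusted p under 0.05, single-library values and antennal members were added after their values were seen. The members and lists were chosen with earlier results of these data known. Left ends of loci were counted from 0 and raised by 1. Of 49 members, 13 share a locus with other genes in the tables and 11 have exons overlapping another protein gene in the BDGP6 annotation, so their values are uncertain. The fit was also run on simulated data with independent noise for each gene and known fold changes. That run does not cover deviations shared by genes of a library. Alternatives varied the pseudocount, the minimum, the scaling, the model and the libraries.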

Additional observations from a re-analysis of the deposited data

Results flagged for a closer look

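Over 169 sets of 5 libraries (a member in a group of a table), 8 had a library far from the other 4. The cutoff used would flag about 1 in 20 sets of independent, normally distributed values. Members measured in the same library are not independent, so no conclusion is drawn from the count. The values are listed as a description only. In w1118 heads with restrained fathers, Obp49a was 141 FPKM in library 2 against 132 to 134 FPKM in the others, and Obp56d was 573 FPKM in library 4 against 543 to 550.1 FPKM. In dATF-2KO heads with restrained fathers, Obp99a was 7.41 FPKM in library 3, the head library with high yolk transcripts, against 0 to 0.380 FPKM. In body of dATF-2KO sons, 3 of the values were in restrained library 3, the body library with yolk and eggshell transcripts: Obp19c at 8.35 FPKM against 0.0712 to 0.274 FPKM, Obp18a at 26.8 FPKM against 32.8 to 34.8 FPKM, and Obp44a at 583 FPKM against 667 to 691 FPKM. The other body values were Obp56e at 18.3 FPKM in unrestrained library 2 against 13.7 to 14.3 FPKM and Obp50d at 1.04 FPKM in restrained library 5 against 1.73 to 1.88 FPKM. The part of yolk and eggshell material in these values was not tested.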

How the results depend on the processing

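No Obp gene was called under any alternative in any of the 3 tables or in the comparison of genotypes, where every count stayed at 0, also with each library left out in turn (0 to 0). The changes of the members at an unadjusted p under 0.05 kept their direction under every alternative run. Over these alternatives the adjusted p of Obp99b ran from 0.0438 to 0.281 in w1118 heads and from 0.108 to 0.320 in dATF-2KO heads, and that of the Obp19d difference between genotypes from 0.0547 to 0.324. The replicate number as a block left 0 members called in each table. No pairing of libraries of the same number was seen. Correlations of their deviations were -0.03 to 0.14 in w1118 heads, -0.12 to 0.03 in dATF-2KO heads and -0.11 to 0.05 in body. Of 5 libraries, 1, 0 and 1 correlated best with their own number. Such correlations cannot tell whether pools of the same number shared a cross or handling. The tissue classes moved most with the minimum: at 2 FPKM in place of 1, 1 member in place of 6 was detected in part and 0 in place of 1 was shared and higher in body. Leaving out restrained dATF-2KO head library 5 also left 0 in that class, since Obp56f then fell below 1 FPKM there. Leaving out other single libraries moved Obp57e, Obp73a, Obp99a and Obp19c between classes. The planned comparisons in w1118 body were not run. With FPKM alone, changes in members near 1 FPKM are limited by the spread between pools.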
